A study of Mus musculus with 39 samples.

Results

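UDP-glucuronosyltransferases are followed here through 10 genes, Ugt1a1, Ugt1a6a, Ugt1a9, Ugt2a3, Ugt2b1, Ugt2b5, Ugt2b34, Ugt2b35, Ugt2b36 and Ugt2b38, chosen by symbol from the 54735 rows of the deposited liver and spleen tables. They are 10 of the 22 genes of the Ugt families in those tables. The libraries came from C57BL/6 mice at 4 weeks of age, either wild type or SXR knockout (SXR/PXR, the steroid and xenobiotic receptor, is the product of Nr1i2). Exposure, which began perinatally, was to PCB-153 (a polychlorinated biphenyl that persists in fat) at about 54 µg/kg/day, or to DMSO, its solvent, as vehicle. Each tissue had 4 groups, wild-type vehicle, wild-type PCB-153, knockout vehicle and knockout PCB-153, with 5 libraries per group except for 4 wild-type vehicle spleens. The labels do not state whether the libraries within a group are separate animals or litters, and a p-value here measures no more than the spread between samples, which may be technical.

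These enzymes sit in the membrane of the endoplasmic reticulum and attach glucuronic acid, taken from UDP-glucuronic acid, to bilirubin, steroids and drugs. The product is more soluble in water and leaves in bile or urine. In liver the nuclear receptors PXR and CAR and the aryl hydrocarbon receptor are known regulators of several Ugt genes. Ugt1a1 encodes the enzyme for bilirubin, Ugt1a6a an enzyme for small planar phenols and Ugt1a9 an enzyme for bulkier phenols, while Ugt2 enzymes act mainly on steroids, bile acids and drugs.

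The Ugt1a genes form a single locus at chr1:88055388-88220002 (GRCm38, plus strand), in which each gene has its own first exon and all end on the same later exons. The sequences below join the last 30 bases of the first exon, in lower case, to the first 30 bases of the shared exon at chr1:88215044-88215073, in capitals, and show where the 3 Ugt1a members stop differing.
Ugt1a1: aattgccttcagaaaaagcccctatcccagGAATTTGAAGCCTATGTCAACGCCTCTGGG
Ugt1a6a: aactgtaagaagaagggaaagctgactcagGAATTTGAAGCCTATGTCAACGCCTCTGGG
Ugt1a9: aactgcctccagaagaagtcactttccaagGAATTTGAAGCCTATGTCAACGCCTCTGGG
Of the 30 first-exon bases, Ugt1a6a had 14 and Ugt1a9 had 23 equal to Ugt1a1. In the GENCODE M21 annotation 1311 exonic bases belonged to all 9 Ugt1a genes, which is 58.95% of the exonic bases of Ugt1a1, 30.4% of those of Ugt1a6a and 59.86% of those of Ugt1a9. The 7 Ugt2 members lie between 86889767 and 87424203 on chromosome 5 and overlap no other Ugt gene in their exons. Ugt2b5 and Ugt2b38 are close copies: 34.8% of the 50-base words of Ugt2b5 occur in Ugt2b38, so their counts are less certain than those of Ugt2b1, which shared 0 words with any other gene.

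Because each Ugt1a gene starts from its own promoter, the 250 bases before the RefSeq start (GRCm38.p6, plus strand) are shown for the 3 Ugt1a members. Capitals mark matches to a motif of the liver factor HNF1 (GTTAAT, any base, then ATT), searched on both strands.
Ugt1a1 (chr1:88211709-88211958): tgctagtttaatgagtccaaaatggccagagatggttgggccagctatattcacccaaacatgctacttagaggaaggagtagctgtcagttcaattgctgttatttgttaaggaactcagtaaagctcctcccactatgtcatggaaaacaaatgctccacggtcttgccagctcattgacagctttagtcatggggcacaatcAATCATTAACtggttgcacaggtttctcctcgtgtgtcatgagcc
Ugt1a6a (chr1:88134559-88134808): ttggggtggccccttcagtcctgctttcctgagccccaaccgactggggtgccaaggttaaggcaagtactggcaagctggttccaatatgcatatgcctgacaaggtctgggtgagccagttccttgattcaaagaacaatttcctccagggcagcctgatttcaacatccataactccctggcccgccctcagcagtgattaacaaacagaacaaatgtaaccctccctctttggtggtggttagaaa
Ugt1a9 (chr1:88070529-88070778): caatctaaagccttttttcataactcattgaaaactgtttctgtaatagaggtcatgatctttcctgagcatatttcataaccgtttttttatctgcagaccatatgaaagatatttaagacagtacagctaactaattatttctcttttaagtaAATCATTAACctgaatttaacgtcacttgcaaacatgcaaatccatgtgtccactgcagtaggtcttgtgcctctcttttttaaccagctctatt
Among the 10 members, the windows of Ugt1a1 and Ugt1a9 held the motif, against 0.371% of 32851 windows of the same length. The window of Ugt1a10, which is no member, held it too. TNGCGTG, the core bound by the aryl hydrocarbon receptor, was present in 4.1% of all windows and in those of 0 members. Direct repeats of AGNTCA with 3 or 4 bases between them, of the kind PXR and CAR bind, were present in 0.052% and 0.103% of windows and in those of 0 members. A match is a stretch of letters, and these windows do not reach distant enhancers.

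Reads summed over all genes came to 15.23 to 28.65 M per library in liver and 16.1 to 29.52 M in spleen, with medians of 19.02 M and 19.64 M. A read credited to several genes would enter these sums more than once. In liver, normalised counts of Nr1i2, counted over the whole gene, ran from 1328 to 1781 in wild-type vehicle and from 449 to 969 in knockout vehicle livers, and from 1019 to 1939 in wild-type and 612 to 1155 in knockout livers after PCB-153. Nr1i2 fell in knockout vehicle livers (log2 fold change -1.18 ± 0.20 (SE), limma adjusted p = 0.00415) and did not pass the test after PCB-153 (-0.69, adjusted p = 0.111). In spleen Nr1i2 went against the label, at 0 to 2.27 in wild-type libraries and 42.9 to 62.8 in those labelled knockout, so spleens of that genotype are called labelled knockout. Hepatocyte markers were present in all 20 livers, with 9 of 9 measured markers above 0 and a summed normalised count of 1914608 to 2622247. B cell markers summed to 16424 to 37955 in the spleens.

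The Ugt1a genes carried similar counts in the livers. No Ugt1a gene had a lower count than Ugt1a8 in any of the 39 libraries, and in wild-type vehicle livers it stood at 10826 ± 1438 (SD, n = 5) normalised counts beside 12797 ± 1308 for Ugt1a1, 11717 ± 1412 for Ugt1a6a and 11352 ± 1545 for Ugt1a9. No label or header states how reads on the shared exons were credited. The count of Ugt1a8 is used below as an upper limit of the part that all 9 genes share. Over the 20 livers, what Ugt1a1 had beyond it was 7.43% to 22.8% of its count, for Ugt1a6a 3.05% to 10.3% and for Ugt1a9 0.992% to 7.44%. By this measure the 3 Ugt1a members are not independent of each other. Gm20528, an antisense gene whose 1062 exonic bases all lie inside Ugt1a exons, was counted at 5419 ± 377 in the same livers, and without a stated strand setting its reads cannot be told apart from those of Ugt1a.

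**Figure D1:**
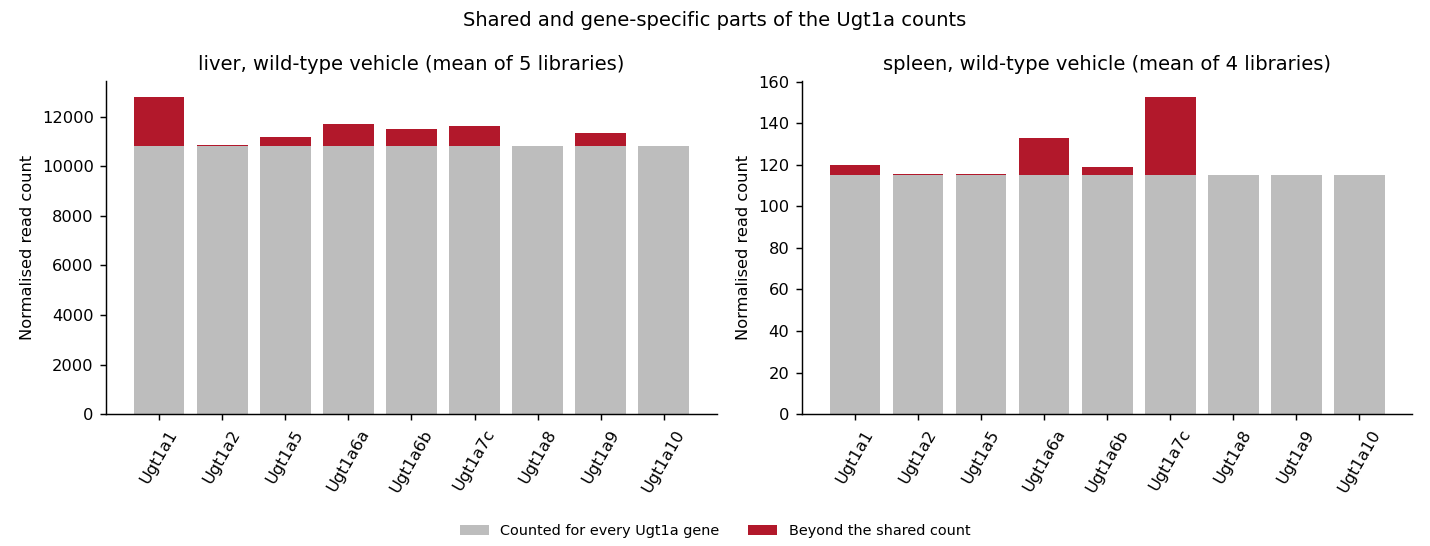
Mean normalised read count of the 9 Ugt1a genes in wild-type vehicle livers (left, 5 libraries) and spleens (right, 4 libraries), split into a part equal to the count of Ugt1a8 (grey) and the rest (red). In liver the red part is largest for Ugt1a1 (1971), and in spleen for Ugt1a7c (37.6).

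Levels can be compared between genes only per length of exon. In wild-type vehicle livers the count of Ugt1a8 came to 8258 ± 1097 (SD, n = 5) normalised counts per kb of the shared Ugt1a exons. This lay above every single gene in all 5 libraries. It pools the Ugt1a genes and is an upper limit, since it can hold reads of the first exon of Ugt1a8. What a gene had beyond that count may therefore understate its own part. For Ugt1a1, Ugt1a2, Ugt1a5, Ugt1a9 and Ugt1a10 these parts, per kb of their own exons, together came to 38.5% of that density. The sum leaves out Ugt1a6a, Ugt1a6b, Ugt1a7c and Ugt1a8. Among single genes Ugt2b5 came first with 4535 ± 880 per kb, then Ugt2b36 with 3473 ± 412 and Ugt2b1 with 2588 ± 891. The part of Ugt1a1 beyond the shared count had 2159 ± 658 per kb. Lower levels per kb were found for Ugt2b34 (1252 ± 248), Ugt2a3 (1079 ± 185), Ugt2b38 (812 ± 288) and Ugt2b35 (663 ± 154). The part of Ugt1a9 beyond the shared count had 599 ± 270 per kb and that of Ugt1a6a 297 ± 76.0, the latter spread over 3001 annotated bases that are partly held by other Ugt1a genes. From Ugt2b5 down to Ugt1a6a each range of libraries overlapped that of the next in order.

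**Figure D2:**
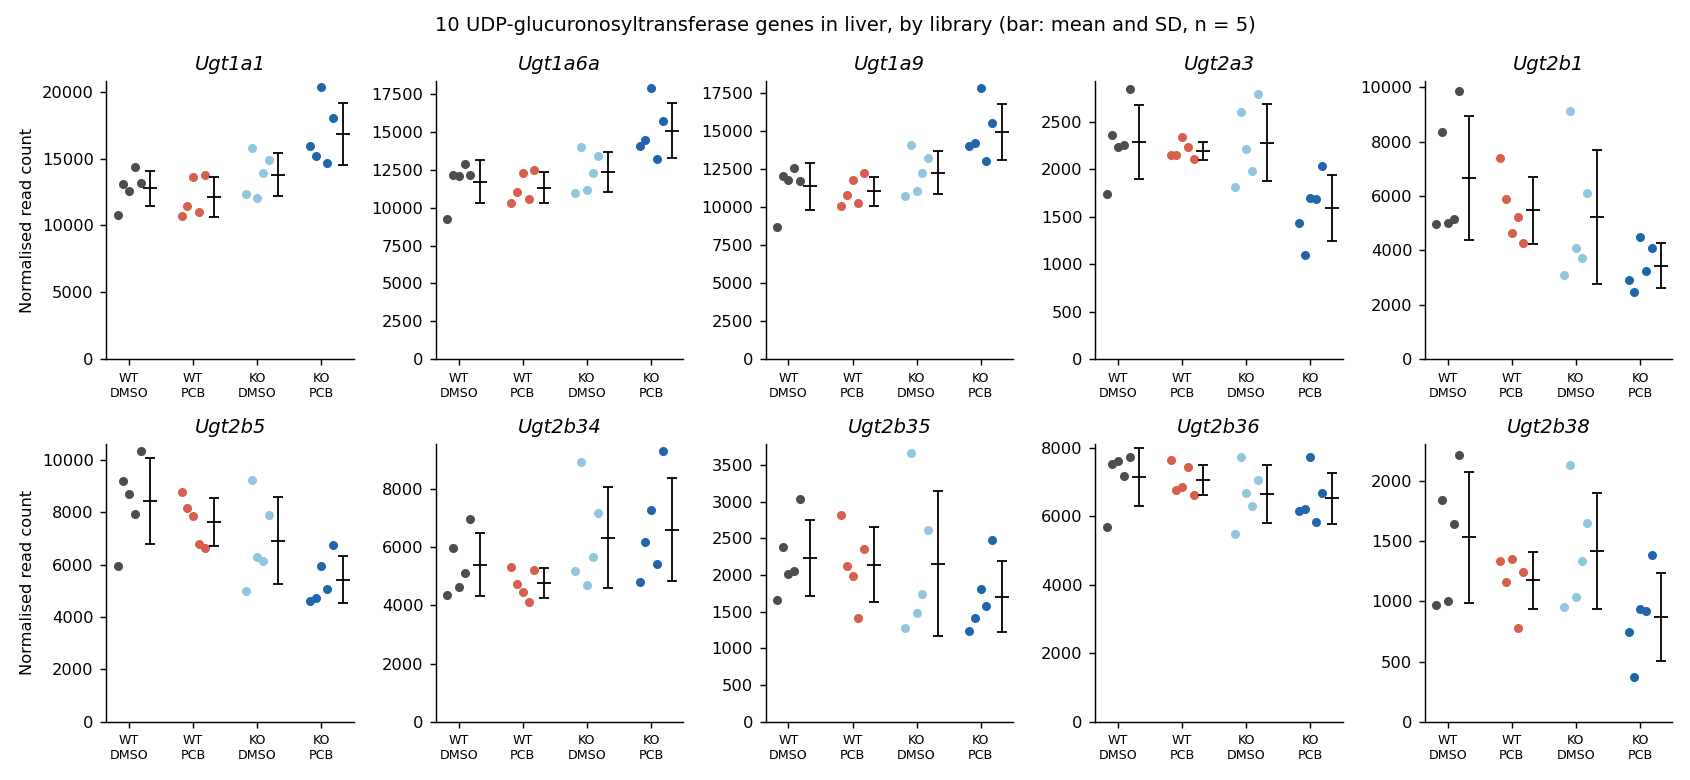
Normalised read count of the 10 genes in each liver library, by group (WT, wild type; KO, knockout; DMSO, vehicle; PCB, PCB-153), with mean and SD at the right of each group (n = 5). The 3 Ugt1a panels look alike, and their knockout PCB-153 libraries lie above all wild-type PCB-153 libraries.

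PCB-153 was compared with vehicle first in wild-type livers, where the receptor is intact. Of the 10 members, 0 changed, and 0 of 16155 genes tested were called (0%) by limma at an adjusted p under 0.05. At an unadjusted p under 0.05 there were 0 members and 1081 genes, and edgeR and DESeq2 also called 0 members. All 10 means were lower after PCB-153, with a median log2 fold change of -0.07 against -0.01 over all genes, and the groups overlapped for all 10 members, as they did for all but 0.508% of genes. Ugt1a1 had normalised counts of 10762, 13128, 12595, 14355 and 13144 in vehicle and 10680, 11480, 13606, 11035 and 13807 in PCB-153 livers. Its log2 fold change was -0.08, with a 95% interval of -0.32 to 0.16. The widest interval belonged to Ugt2b38, whose log2 fold change was -0.33 (-0.95 to 0.28).

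In knockout livers PCB-153 also changed 0 of 10 members by limma, edgeR and DESeq2, again with 0% of genes called by limma. At an unadjusted p under 0.05 stood 5 members and 1592 genes. These 5 include the Ugt1a members, whose counts are not independent of each other. The 3 Ugt1a members had higher means after PCB-153 and 6 of the 7 Ugt2 members lower means, Ugt2b34 being the exception. Ugt1a1 had 12334, 15829, 12051, 13926 and 14872 normalised counts in knockout vehicle and 15968, 15167, 20321, 14687 and 18042 in knockout PCB-153 livers, so the groups overlapped. No member was without overlap here, against 2.42% of genes. Its log2 fold change was 0.28 ± 0.12 (SE, limma adjusted p = 0.462).

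Among the Ugt2 members, Ugt2a3, which encodes a glucuronosyltransferase of liver and intestine, had the lowest p in that comparison. It had 1817, 2600, 2215, 1978 and 2787 normalised counts in knockout vehicle and 1432, 1095, 1693, 1688 and 2029 in knockout PCB-153 livers, where the highest exposed library lay above the lowest pair of vehicle libraries. Its log2 fold change was -0.53 ± 0.15 (limma adjusted p = 0.343). Ugt2b38 gave -0.76 ± 0.30 (limma adjusted p = 0.448), Ugt2b1 -0.52 ± 0.26 (0.505) and Ugt2b5 -0.33 ± 0.16 (0.501). Ugt2b35, Ugt2b36 and Ugt2b34 had log2 fold changes of -0.27, -0.03 and 0.06.

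The change on exposure was also compared between the genotypes themselves. This interaction called 0 of 10 members and 0% of genes by limma, and 0 members by edgeR and DESeq2. At an unadjusted p under 0.05 stood 435 genes and 3 members, Ugt2a3 and the non-independent Ugt1a1 and Ugt1a6a. The interaction estimates were 0.36 (0.02 to 0.70) for Ugt1a1 and -0.49 (-0.93 to -0.06) for Ugt2a3 on the log2 scale, both with a limma adjusted p of 1. A difference in response between the genotypes thus passed the test for 0 members, and the intervals leave room for one.

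**Figure D3:**
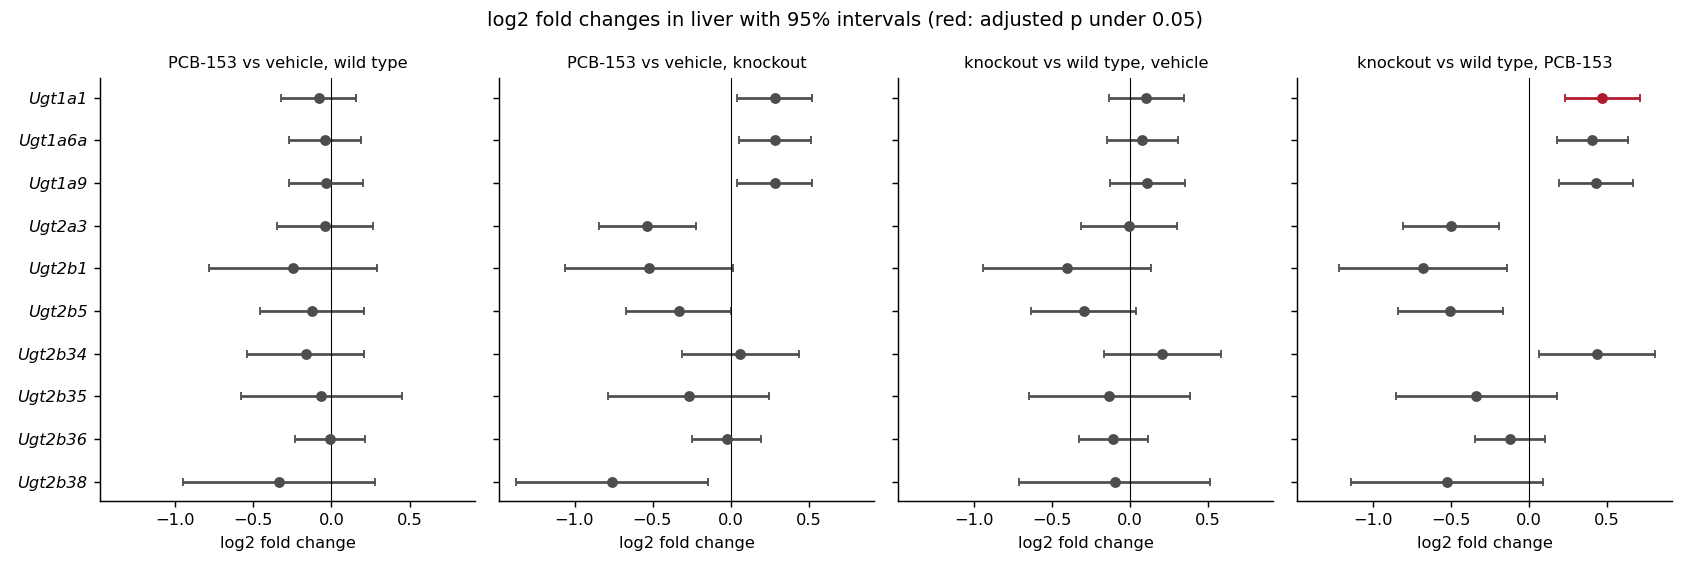
Fitted log2 fold changes of the 10 genes in the 4 liver comparisons, with 95% intervals. Ugt1a1 in knockout against wild type after PCB-153, in red, is the single value with a limma adjusted p under 0.05 (0.0404).

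The genotypes were next compared without PCB-153. In vehicle livers 0 of 10 members differed between knockout and wild type by limma, edgeR or DESeq2, against 0.607% of genes by limma, and the groups of all 10 overlapped, against 3% of genes without overlap. At an unadjusted p under 0.05 stood 0 members and 2037 genes. The largest estimate was that of Ugt2b1, an enzyme for steroids and bile acids, with 4951, 8350, 4997, 5146 and 9856 normalised counts in wild type and 3087, 9137, 4095, 3713 and 6102 in knockout. Each of these groups held 1 or more libraries far above the rest, and the log2 fold change was -0.40 ± 0.26 (limma adjusted p = 0.541). For Ugt1a1 the log2 fold change was 0.11 (-0.13 to 0.35) and for Ugt2a3 -0.0043 (-0.31 to 0.30).

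After PCB-153, Ugt1a1 was higher in knockout than in wild-type livers. It was the 1 member of 10 that passed, against 1.45% of genes called in either direction and 0.594% called higher. Its normalised counts were 10680, 11480, 13606, 11035 and 13807 in wild-type and 15968, 15167, 20321, 14687 and 18042 in knockout PCB-153 livers, so every knockout library lay above every wild-type one. The means were 12122 ± 1476 and 16837 ± 2332 (SD, n = 5 each), which is 0.47 ± 0.12 (SE) on the log2 scale (limma adjusted p = 0.0404). That call was lost, for example, without knockout PCB-153 replicate 3 (0.40, limma adjusted p = 0.136), and over the 10 ways of leaving out 1 library it held in 4, with adjusted p from 0.0247 to 0.138. It was lost without wild-type PCB-153 replicate 1, 2 or 4 and without knockout PCB-153 replicate 1, 3 or 5.

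Ugt1a6a and Ugt1a9 stood on the other side of the threshold with similar counts. Ugt1a6a had 10297, 11046, 12279, 10558 and 12520 in wild-type and 14070, 14482, 17948, 13239 and 15731 in knockout PCB-153 livers, a log2 fold change of 0.41 ± 0.11 (limma adjusted p = 0.0731). Ugt1a9 had 10079, 10764, 11750, 10263 and 12253 against 14028, 14180, 17815, 13015 and 15531, a log2 fold change of 0.43 ± 0.12 (0.0708). Neither pair of groups overlapped. In the authors' deposited table of DESeq2 results for this comparison, Ugt1a1 (log2 fold change 0.47, adjusted p = 0.00453), Ugt1a6a (0.41, 0.0120) and Ugt1a9 (0.44, 0.0117) all had an adjusted p under 0.05.

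Each count was then split into the count of Ugt1a8, taken as the shared part, and what lay beyond it. The shared part, the count of Ugt1a8, was 9843, 10511, 11273, 9960 and 11647 in wild-type and 13534, 14040, 17267, 12548 and 14838 in knockout PCB-153 livers, without overlap. Its log2 fold change was 0.43 ± 0.11 (limma adjusted p = 0.0525). In the authors' deposited DESeq2 results the count of Ugt1a8 had an adjusted p under 0.05 (log2 fold change 0.44, adjusted p = 0.00570). Ugt1a1 beyond the shared count had 837, 970, 2333, 1075 and 2160 normalised counts in wild-type and 2434, 1127, 3053, 2139 and 3205 in knockout PCB-153 livers, which overlapped (0.74 ± 0.31, limma adjusted p = 0.38). The larger estimate came with a wider spread.

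For the other 2 members the interval of the part beyond the shared count included 0. Ugt1a6a beyond the shared count was 693 ± 235 in wild-type and 649 ± 172 in knockout PCB-153 livers (log2 fold change -0.07, 95% interval -0.55 to 0.41). Ugt1a9 beyond it was 375 ± 160 and 468 ± 203 (0.25, -0.61 to 1.10). For Ugt1a5, which is no member, the part beyond the shared count was 202 ± 66.9 and 440 ± 240 (0.98 ± 0.37, 95% interval 0.21 to 1.74, limma adjusted p = 0.299). These estimates use the difference of a gene's count and that of Ugt1a8, a measure chosen after the data were seen. The part beyond the shared count passed the test for 0 of the 3 members in any liver comparison. For Ugt1a6a that part is not specific to the gene, since other Ugt1a genes hold some of its bases.

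**Figure D4:**
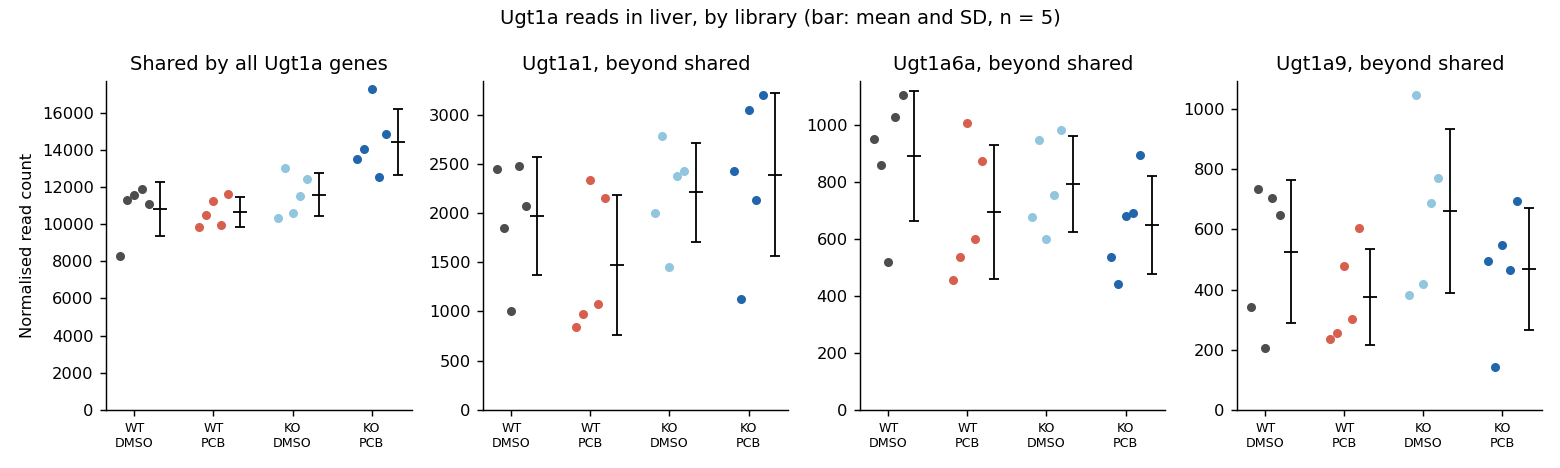
Normalised read count in each liver library of the part shared by all Ugt1a genes and of the parts of Ugt1a1, Ugt1a6a and Ugt1a9 beyond it, with mean and SD (n = 5 per group). The shared part of the knockout PCB-153 livers (12548 to 17267) lies above that of the wild-type PCB-153 livers (9843 to 11647). The parts beyond it overlap between groups.

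The Ugt2 members mostly pointed the other way in the same comparison, and 0 of 7 passed. Ugt2a3 had 2146, 2152, 2342, 2232 and 2105 normalised counts in wild-type and 1432, 1095, 1693, 1688 and 2029 in knockout PCB-153 livers, so every knockout library was lower. The log2 fold change was -0.50 ± 0.15 (limma adjusted p = 0.124). In all, 4 of 10 members did not overlap between these groups (2.59% of genes), 3 higher (1.21%) and 1 lower (1.38%). The 3 higher ones are the Ugt1a members, whose counts are not independent of each other.

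Ugt2b1 had 7378, 5893, 4622, 5231 and 4256 normalised counts in wild-type and 2918, 2474, 4495, 3221 and 4065 in knockout PCB-153 livers, where the groups met at a single knockout library. Its log2 fold change was -0.68 ± 0.26 (limma adjusted p = 0.303). Ugt2b5, an abundant enzyme for steroids and drugs, had 8782, 8161, 7859, 6786 and 6631 against 4623, 4731, 5945, 5067 and 6732 (-0.50 ± 0.16, 0.172). Ugt2b34 was the Ugt2 member with a higher mean in knockout, 4765 ± 502 against 6602 ± 1762, and its log2 fold change of 0.44 ± 0.18 did not pass either (limma adjusted p = 0.357). The remaining members, Ugt2b35, Ugt2b36 and Ugt2b38, had -0.34, -0.12 and -0.52. Over all 10 members the median log2 fold change was -0.23 against 0.00 over all genes, and 7 members had an unadjusted p under 0.05 beside 1725 genes. The Ugt1a members are among these 7 and are not independent of each other. This comparison and that of exposure in knockout share the knockout PCB-153 livers.

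Other levels that differed between the genotypes in these livers were those of sex-biased genes. The sex of the animals is not given here, and its balance between the groups was not tested. In the same comparison 8 of 9 male-biased liver genes fell (median log2 fold change -2.55) and 6 of 10 female-biased ones rose (1.64). Of all genes, 1.45% were called there. The shift was also present without PCB-153. In knockout against wild-type vehicle livers 5 of 9 male-biased genes fell (median -2.0048) and 3 of 10 female-biased ones rose (1.6515). Of all genes, 0.607% were called in vehicle livers. The summed male-biased level was 19480 to 50430 normalised counts in wild-type and 6745 to 9231 in knockout PCB-153 livers, and the female-biased one 3994 to 12017 and 25143 to 37708. Of 9 hepatocyte markers 0 changed. The part of the sex-biased programme in the Ugt values was not tested, and in whole tissue fewer cells of a type and less RNA per cell cannot be told apart.

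The genes around glucuronidation were read from fixed lists. In knockout against wild type after PCB-153, 2 of 9 Ugt1a genes rose, Ugt1a1 and Ugt1a5 (log2 fold change 0.45, limma adjusted p = 0.0448), whose counts overlap. By limma 0 of 8 tested Ugt2 genes changed. In the authors' deposited DESeq2 results 1 of them, Ugt2b37, was lower in knockout (log2 fold change -1.19, adjusted p = 0.0365). Ugt3a1, of a family that uses other sugars, fell (-0.95, 0.0275), 1 of 2 tested genes of its list. Of 8 genes that supply UDP-glucuronic acid 0 changed; Ugdh, which makes it, was at 1869 ± 154 and 1989 ± 875 normalised counts. Among 5 export genes Abcc4, an efflux pump of the basolateral membrane, rose (1.61, limma adjusted p = 0.00522). Of 9 genes of bilirubin formation and uptake, Slco1a1, an uptake carrier that is also on the male-biased list, fell (-4.07, 0.000807).

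Classic receptor targets moved in part. Cyp2b10, a CAR target, had 736 ± 299 normalised counts in wild-type and 2168 ± 408 in knockout PCB-153 livers and rose (log2 fold change 1.65, limma adjusted p = 0.000756), as did Cyp2c55 (1.57, 8.07e-05), 2 of 9 genes of that list. Cyp3a11, a PXR target, was at 87727 ± 4841 and 80021 ± 15628 (-0.15, 0.831). Cyp1a1 and Cyp1a2, targets of the aryl hydrocarbon receptor, were at 201 ± 29.0 and 171 ± 91.7 and at 9628 ± 1077 and 7481 ± 2866, without passing the test. The other list genes with the smallest p in this comparison were the male-biased Hsd3b5 (-7.09), Selenbp2 (-1.71), Cyp4a12a (-5.96) and Mup20 (-2.55) and the female-biased Sult2a1 (5.39). In vehicle livers, besides Nr1i2, the smallest p belonged to A1bg (3.64), Cyp2d9 (-2.28), Sult2a1 (4.50), Susd4 (-1.58), Selenbp2 (-1.33), Cyp2c55 (1.03) and Hsd3b5 (-4.54), all called.

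Within groups the members varied together from liver to liver. Over the 20 livers the deviations from the group means correlated at r = 0.946 to 0.995 between the 3 Ugt1a members, which share reads, at 0.479 to 0.927 between Ugt2 members and at 0.393 to 0.732 between the 2 families (Spearman's rho 0.961 to 0.988, 0.546 to 0.905 and 0.361 to 0.725). The closest pair of Ugt2 members was Ugt2b34 and Ugt2b35 (r = 0.927). All points share library depth and preparation, and these are descriptions only. Outside the Ugt families, the genes most like Ugt1a1 were Gm20528 (r = 0.928), Aqp9 (0.860) and Gpc4 (0.857). The exons of Gm20528 lie inside Ugt1a exons, so its reads cannot be told apart from those of Ugt1a. Those most like Ugt1a6a were Cyp3a44 (0.849), Gm8394 (0.831) and Aqp9 (0.823), and for Ugt1a9 Cyp3a44 (0.868), Gm8394 (0.835) and AC126254.1 (0.830).

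For the Ugt2 members the likeness was of similar size. Ugt2a3 was most like Gm45724 (r = 0.943), Abcg2 (0.918) and Pepd (0.885), and Ugt2b1 like Perp (0.909), Sult2a8 (0.903) and Sox5 (0.903). Ugt2b5 was most like Ces2c (0.935), Ormdl3 (0.913) and Glo1 (0.908), and Ugt2b34 like Usp32 (0.933), Trip4 (0.913) and Lman1 (0.913). Ugt2b35 was most like Slc25a17 (0.908), Slc34a2 (0.906, at a low mean of 25.2 normalised counts) and Pnp (0.902). Ugt2b36 was most like Glyat (0.919), Adgrv1 (0.858, at a low mean of 15.2) and Grtp1 (0.855), and Ugt2b38 like Cmtm6 (0.949), Pcyox1 (0.946) and Zdhhc3 (0.936).

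In spleen only the Ugt1a members passed the minimum level, mostly through the count that all Ugt1a genes share. Since the tables of the tissues were normalised separately, levels are given as reads per M reads summed over all genes. Ugt1a1 stood at 6.12 ± 0.661 (SD, n = 4) in wild-type vehicle spleens and at 662 ± 77.9 (n = 5) in wild-type vehicle livers. Of the 10 members, 3 passed the minimum mean of 10 normalised counts. In spleen the shared count was again most of each value, and Ugt1a9 had 0 reads beyond it in the 4 wild-type vehicle spleens, a difference of counts that sets no upper limit on its own reads, since the count of Ugt1a8 can hold reads of its own first exon. The part of Ugt1a1 beyond it was 0% to 9.60% of its count over the 19 spleens, so its level in spleen is almost wholly that of the shared part, and that of Ugt1a9 0% to 4.28%. Ugt1a6a kept 9.33% to 17.3% of its count beyond the shared part and Ugt1a7c, which is no member, 20.9% to 31.2%.

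None of the 3 tested members changed in any spleen comparison. Ugt1a1 had 126, 142, 102 and 109 normalised counts in wild-type vehicle spleens, 141, 93.2, 136, 101 and 107 in wild-type PCB-153, 146, 114, 114, 183 and 102 in labelled-knockout vehicle and 138, 111, 107, 103 and 119 in labelled-knockout PCB-153 spleens. The 4 groups overlapped throughout. Without overlap were 1.39% of genes for PCB-153 in wild type and 4.62% in the labelled knockout. For genotype the share was 3.57% in vehicle and 2.05% after PCB-153. PCB-153 in labelled-knockout spleens called 0 of 3 members by limma, edgeR and DESeq2 (0 at an unadjusted p under 0.05), against 5.3% of genes by limma, with a log2 fold change of -0.17 (-0.48 to 0.15) for Ugt1a1. In wild-type spleens it was -0.06 (-0.40 to 0.28), with 0% of genes called. Labelled knockout against wild type gave 0.12 (-0.22 to 0.45) in vehicle, with 0.0315% of genes called, and 0.01 (-0.31 to 0.33) after PCB-153, with 0.157%.

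In the same spleens, PCB-153 in the labelled knockout raised Abcg2, an efflux pump on the export list (log2 fold change 0.57, limma adjusted p = 0.0263), and Blvra, biliverdin reductase, which makes bilirubin (0.40, 0.0272). Among the marker genes with the smallest p there were the B cell genes Ms4a1 (-0.60), Cd79a (-0.64) and Cd79b (-0.60) and the neutrophil genes S100a8 (0.65) and S100a9 (0.66). Summed B cell markers were 28761 to 37955 normalised counts in labelled-knockout vehicle and 16424 to 27594 in labelled-knockout PCB-153 spleens. All 5 B cell markers fell, 5 of 6 neutrophil markers rose (median log2 fold change 0.66), 3 of 6 erythroid markers rose (0.53) and 2 of 7 pancreatic acinar markers rose (4.31). Summed erythroid markers were 1146812 to 1845458 and 1705938 to 2503696 normalised counts, and acinar ones 486 to 628 and 589 to 59742. The part of these markers in the 2 called genes was not tested.

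The 7 Ugt2 members were at or near 0 in most spleens. Together they had 311 reads over the 19 libraries, of which 259 (83.3%) lay in 2 libraries, 86 in wild-type PCB-153 replicate 1 and 173 in labelled-knockout vehicle replicate 4. These 2 libraries also had the most albumin (Alb) reads, 2551 and 9667, and the most reads of the hepatocyte markers, 3634 and 13619. The other 17 spleens had 0 to 20 reads of the 7 members, 0 in 10 of them, and 1 to 917 Alb reads. Per 1000 Alb reads the 2 libraries held 33.7 and 17.9 Ugt2 reads, and the livers 11.9 to 28.4. In the 7 other spleens with any Ugt2 reads, of which each had 20 or fewer, the ratio ran from 7.83 to 272.7. Ugt2b1, Ugt2b5, Ugt2b35 and Ugt2b38 had 0 reads in all 5 labelled-knockout PCB-153 spleens, which allows up to 3 reads in the group, or 0.0301 per M. No Ugt2 member reached the minimum mean of 10 normalised counts in spleen, so no comparison between spleen groups is reported for them. In wild-type PCB-153 and in labelled-knockout vehicle spleens, 1 library also held most of the group's Ugt2 reads.

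**Figure D5:**
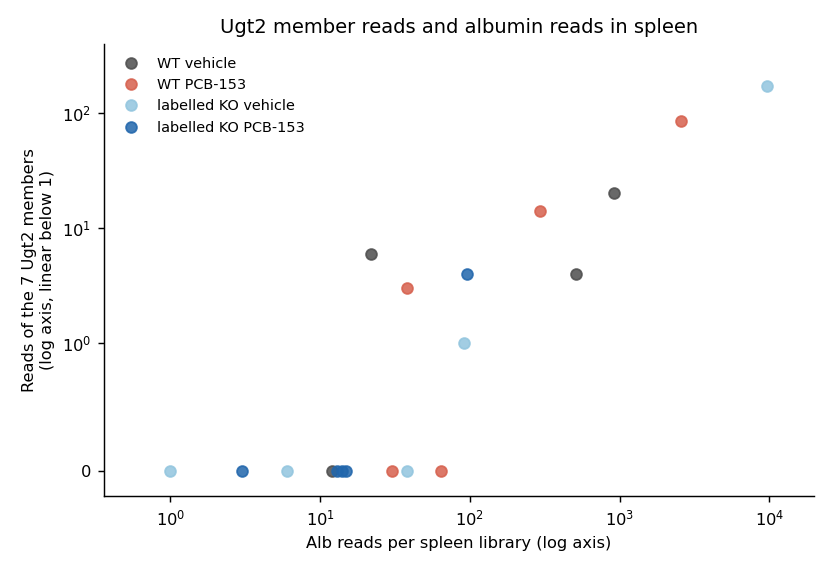
Summed reads of the 7 Ugt2 members against reads of Alb in each of the 19 spleen libraries, both on log axes, with the vertical axis linear below 1. The 2 libraries at the upper right, with 86 and 173 Ugt2 reads, are those with 2551 and 9667 Alb reads.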

How the data were processed

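RNA of mouse liver and spleen was sequenced on a HiSeq4000 from TruSeq libraries, per the labels' protocols. Reads went through FastQC, STAR 2.6.0 and featureCounts on mm10, and DESeq2 (version 3.8 as written), per the submitters' processing notes. Neither the annotation, nor the strand setting, nor the handling of reads over several genes is stated in the sources used here. The authors deposited, per tissue, a signal table of normalised counts, in which a gene's reads are divided by 1 factor per library. Values were whole multiples of 1 step in each library, and 100% came out as whole reads within 0.05. The authors also deposited their DESeq2 comparisons, with log2 fold changes, p-values and a score (the test statistic).

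For genes with a mean of at least 10 in a tissue, log2(value + 1) entered limma 3.58.1 (eBayes with trend, R 4.3.3), in 1 fit per tissue over 4 groups, two-sided, with Benjamini-Hochberg adjustment over all genes and a threshold of 0.05. Changes of low genes are understated on this log2 scale. "Rose", "fell" and "changed" are used for genes past that threshold. The fit was tested on simulated reads with known changes of 1 or more on the log2 scale. These are larger than the estimate of any tested member, so the simulation does not show how changes of that size fare. Positions, exons and shared words are from GENCODE M21, and 98.8% of symbols matched it. Members and lists were chosen with earlier results of these data known. Named are all members, up to 8 called list genes per comparison by p, Nr1i2, Cyp2b10, Cyp3a11, Cyp1a1, Cyp1a2 and the 3 genes most like each member; a list gene that the rule also names is not reported here. Ugt1a5, Ugt1a7c, Ugt2b37, Ugt3a1, Abcc4, Ugdh and Gm20528 were named after their values were seen. Alternatives were edgeR 4.0.16, DESeq2 1.42.0, pseudocounts of 0.5 and 5, no filter, a minimum mean of 50, quantile normalisation, the compared groups alone, a replicate block and each library left out. Intervals and floors cover counting error or the spread between samples only.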

Additional observations from a re-analysis of the deposited data

Results flagged for a closer look

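Single libraries far from the others of their group were found in 3 of 40 gene and group combinations in liver and in 20 of 36 in spleen. Chance gives about 1 in 20, a rate that does not apply to the Ugt2 members in spleen, where the other libraries of a group are often at 0 and 1 read is enough to stand apart. In liver all 3 came from wild-type vehicle replicate 1, which was the lowest of its group for Ugt1a6a (9262 normalised counts), Ugt1a9 (8655) and Ugt2b36 (5684).

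In spleen, labelled-knockout vehicle replicate 4 was the highest of its group for all 7 Ugt2 members: Ugt2a3 (16.6), Ugt2b1 (25.8), Ugt2b5 (39.7), Ugt2b34 (32.3), Ugt2b35 (9.23), Ugt2b36 (32.3) and Ugt2b38 (3.69). Wild-type PCB-153 replicate 1 was the highest for Ugt2b1 (10.04), Ugt2b5 (19.0), Ugt2b34 (17.9), Ugt2b35 (10.04), Ugt2b36 (29.0) and Ugt2b38 (7.81). These are the 2 spleens with the most Alb reads, 9667 and 2551, and the part of the hepatocyte reads in the Ugt2 values was not tested. In wild-type vehicle spleens, replicate 1 stood apart for Ugt2a3 (2.20) and Ugt2b36 (5.50) and replicate 4 for Ugt2b35 (0.756). In labelled-knockout PCB-153 spleens, replicate 4 stood apart for Ugt2a3 (1.06), Ugt2b34 (2.12) and Ugt2b36 (1.06), and replicate 1 for Ugt1a6a (159.1). That replicate 1 and replicate 4 also had the most pancreatic acinar marker reads of the spleens.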

How the results depend on the processing

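In liver, knockout against wild type after PCB-153 had 1 member called. The count was 0 with no filter on low values, with the compared groups alone and with Ugt1a reads beyond the shared part, 3 with quantile normalisation and with DESeq2, and 0 to 3 with 1 library left out; the cause was not tested. The count of 3 came without wild-type PCB-153 replicate 5. Over all genes the same comparison called 234, against 212, 227, 229, 254 and 380 in those 5 settings in the order given, and 124 to 337 with 1 library left out. In all other comparisons it was 0 in every setting run. Ugt1a1 kept its direction, at 0.47 to 0.50 over 9 other settings (adjusted p 0.00332 to 0.121, called in 7) and 0.40 to 0.52 with 1 library left out. Same-numbered livers correlated in their deviations at r = -0.378 to 0.449 (over 0.1 in 10 of 30 pairs). Same-numbered spleens did so at -0.229 to 0.271 (9 of 27). No pair of groups was over 0.1 at every number, so the numbers were not taken as pairs. Between wild-type vehicle and knockout vehicle livers all were above 0, at 0.166, 0.159, 0.268, 0.039 and 0.241. Every other pair of groups had both signs. With the replicate block 1 member was called in liver for knockout against wild type after PCB-153 (Ugt1a1, limma adjusted p = 0.0413).

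The following log2 fold changes turned direction, none of them called. With Ugt1a reads beyond the shared part (chosen after seeing the data), log2 fold changes in liver were -0.30 for PCB-153 in knockout, -0.0722 for knockout after PCB-153 and -0.15 for knockout in vehicle (Ugt1a6a), and -0.57 for PCB-153 in knockout and -0.14 for the interaction (Ugt1a9). In spleen, Ugt1a6a gave 0.0497 and 0.0145 for PCB-153 in the labelled knockout and in wild type, 0.0351 for the interaction and -0.0144 for genotype in vehicle. Quantile normalisation gave, in liver, 0.0358 (Ugt1a6a), 0.0357 (Ugt1a9) and 0.0263 (Ugt2b36) for PCB-153 in wild type and 0.0469 for Ugt2a3 by genotype in vehicle. In spleen it gave -0.0008 (Ugt1a6a) and -0.0075 (Ugt1a9) by genotype after PCB-153. In that spleen comparison edgeR gave -0.0062 (Ugt1a1), -0.0035 (Ugt1a6a) and -0.0129 (Ugt1a9) and DESeq2 -0.0046 (Ugt1a9), and edgeR gave 0.0092 for Ugt2a3 by genotype in vehicle livers. The replicate block gave 0.0007 (Ugt1a6a) and 0.0017 (Ugt1a9) for PCB-153 in wild-type spleens. Without 4 spleens with hepatocyte or pancreatic reads (also chosen later), the spleen interaction was 0.0611 (Ugt1a1), 0.0192 (Ugt1a6a) and 0.0274 (Ugt1a9), and genotype in vehicle -0.0098 (Ugt1a1).

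With 1 library left out, ranges that crossed 0 in liver were, for PCB-153 in wild type, -0.1294 to 0.0054 (Ugt1a9), -0.1348 to 0.0421 (Ugt2a3), -0.1724 to 0.0743 (Ugt2b35) and -0.0903 to 0.0213 (Ugt2b36). For PCB-153 in knockout they were -0.0694 to 0.1977 (Ugt2b34) and -0.0940 to 0.0310 (Ugt2b36), and for the interaction -0.3635 to 0.0147 (Ugt2b35) and -0.0842 to 0.0644 (Ugt2b36). For genotype in vehicle they were -0.0 to 0.1232 (Ugt1a6a), -0.0982 to 0.0786 (Ugt2a3), -0.3501 to 0.0281 (Ugt2b35) and -0.2591 to 0.0554 (Ugt2b38). In spleen they were -0.1353 to 0.0246 (Ugt1a1), -0.1088 to 0.0490 (Ugt1a6a) and -0.1148 to 0.0459 (Ugt1a9) for PCB-153 in wild type. For the spleen interaction they were -0.1898 to 0.0202 (Ugt1a1) and -0.1887 to 0.0089 (Ugt1a6a), and for genotype in vehicle spleens -0.0098 to 0.2001 (Ugt1a1). For genotype after PCB-153 in spleen they were -0.0616 to 0.0854 (Ugt1a1), -0.0676 to 0.0866 (Ugt1a6a) and -0.0698 to 0.0795 (Ugt1a9).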
